A study of Mus musculus with 4 samples.

Results

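The Nlrp4, Nlrp9 and Nlrp14 genes of the oocyte were measured by RNA-seq in mouse embryos at the late two-cell stage. They were the 10 of 24411 listed genes whose symbol is Nlrp14, or Nlrp4 or Nlrp9 followed by 1 letter, which gave 6 Nlrp4 genes (a, b, c, e, f and g), 3 Nlrp9 genes (a, b and c) and Nlrp14. Nlrp4d, a pseudogene in RefSeq, was not analysed here. All embryos were of the ICR strain and were made by in vitro fertilization, cultured in KSOM medium and collected at 36 h post-insemination (hpi). The 2 DMSO libraries came from embryos given the solvent alone, and the 2 MYC-inhibited libraries from embryos given 6 µM 10074-G5, an inhibitor that blocks the pairing of MYC with its partner MAX. Each library pooled 10 embryos, and the start of treatment is 3 hpi in the sample labels and 6 hpi in the design text. The labels name no allele or transgene.

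NLRP proteins are NOD-like receptors, built from a pyrin domain, a nucleotide-binding NACHT domain and leucine-rich repeats. Several family members sense microbes or cell damage and assemble inflammasomes, which activate caspase-1. In mice, the Nlrp4, Nlrp9 and Nlrp14 genes are known for expression in oocytes, where their transcripts are made during oocyte growth and are inherited by the embryo at fertilization. Such maternal transcripts are normally cleared around the two-cell stage while the embryonic genome becomes active.

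The expected counts (RSEM's estimate of fragments per gene) summed to between 18206600 and 20718700 per library. Tests used edgeR on 13549 genes that passed a filter on low counts, among them all 10 family members, with CPM (counts scaled to the library size) adjusted by TMM factors. DMSO replicate 1 stood apart from the other libraries. Its log2(CPM + 1) had a Pearson's r of 0.927 with DMSO replicate 2 and of 0.866 and 0.885 with the MYC-inhibited replicates, against 0.967 between the MYC-inhibited replicates and 0.951 and 0.962 between DMSO replicate 2 and these. The r values are over genes, which are not independent replicates. For 22 genes that mark the two-cell embryo, such as Zscan4c and Zfp352, the summed level in FPKM (fragments per kilobase of effective length, scaled to the library) was 2121 in DMSO replicate 1, 5392 FPKM in DMSO replicate 2, and 6401 and 6978 FPKM in the MYC-inhibited replicates. A list of 15 cumulus and granulosa cell genes summed to 29.9 and 24.7 FPKM in the DMSO replicates and to 20.1 and 21.0 FPKM in the MYC-inhibited replicates, with Amh, Foxl2 and Inha at 0 counts in every library, and most of the sum came from Nr5a2, which embryos also express. Next in level was Tnfaip6, with counts of 0 and 95 in the DMSO replicates and 93 and 38 in the MYC-inhibited replicates. For Cyp19a1 the counts were 23 and 25, and 128 and 27. Of the 4 genes of this list that were tested, 2 were higher and 2 lower in MYC-inhibited embryos. A list of 10 leukocyte genes summed to 3.22 and 21.4 FPKM in the DMSO replicates and to 12.9 and 14.4 FPKM in the MYC-inhibited replicates, with Csf1r and Cd3e at 0 counts in every library. The highest of them, Cd68, had counts of 21 and 159 in the DMSO replicates and 137 and 197 in the MYC-inhibited replicates. For Lyz2 the counts were 0 and 102, and 64 and 0, and for Laptm5 11 and 55, and 79 and 34. Of the 5 leukocyte genes tested, 3 were higher and 2 lower in MYC-inhibited embryos. The sum of 8 sperm genes was 2.7 and 4.51 FPKM in the DMSO replicates and 17.2 and 9.43 FPKM in the MYC-inhibited replicates. This sum moved in the same direction as the Nlrp genes, but only 1 of the 8 genes, Prm2, was tested. Most of the sum was Prm2, a sperm protamine, with counts of 10 and 27 in the DMSO replicates and 111 and 39 in the MYC-inhibited replicates. Its log2FC was 1.78 (adjusted p = 0.422 by edgeR). Odf1 had counts of 18 and 0 in the DMSO replicates and 6 and 4 in the MYC-inhibited replicates. In the same order, Spem1 had 0 and 1, and 17 and 0. Tnp1 had 0 and 0, and 0 and 10, and Akap4 0 and 0, and 0 and 7. Prm1, Tnp2 and Smcp were at 0 counts in every library. A count of 0 allows up to 3 counts, a limit that covers counting error only. The part of these lists in the values of the Nlrp genes was not tested.

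All 10 genes were detected in every library, with summed rounded counts of 12113 and 43417 in the DMSO replicates and 90243 and 72490 in the MYC-inhibited replicates. Their summed level was 214 and 806 FPKM in the DMSO replicates, or 510 ± 419 FPKM (SD, n = 2), and 1458 and 1238 FPKM in the MYC-inhibited replicates, or 1348 ± 156 FPKM (SD, n = 2). The MYC-inhibited mean was 2.64 times the DMSO mean, and the SD of the DMSO replicates was nearly as large as their mean. In a pool of whole embryos, more transcript in each embryo and more embryos that hold it cannot be told apart. By mean FPKM over the libraries, the order was Nlrp4f (225), Nlrp9c (202), Nlrp9a (149.9), Nlrp14 (145), Nlrp4e (68.4), Nlrp4g (53.6), Nlrp4a (41.4), Nlrp9b (24.6), Nlrp4b (15.7) and Nlrp4c (3.9). The first 4 of these and Nlrp4e held from 83.3% to 85.6% of the family's FPKM in each library. Neighbours in this order exchanged places between libraries for Nlrp4f and Nlrp9c and for Nlrp9a and Nlrp14, where the upper gene was the higher in 2 of 4 libraries. They also did so for Nlrp4g and Nlrp4a and for Nlrp9b and Nlrp4b, where the upper gene was the higher in 3 of 4 libraries. Nlrp14 was the highest of the family in DMSO replicate 1 and lay behind Nlrp4f and Nlrp9c in the other 3 libraries.

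**Figure D1:**
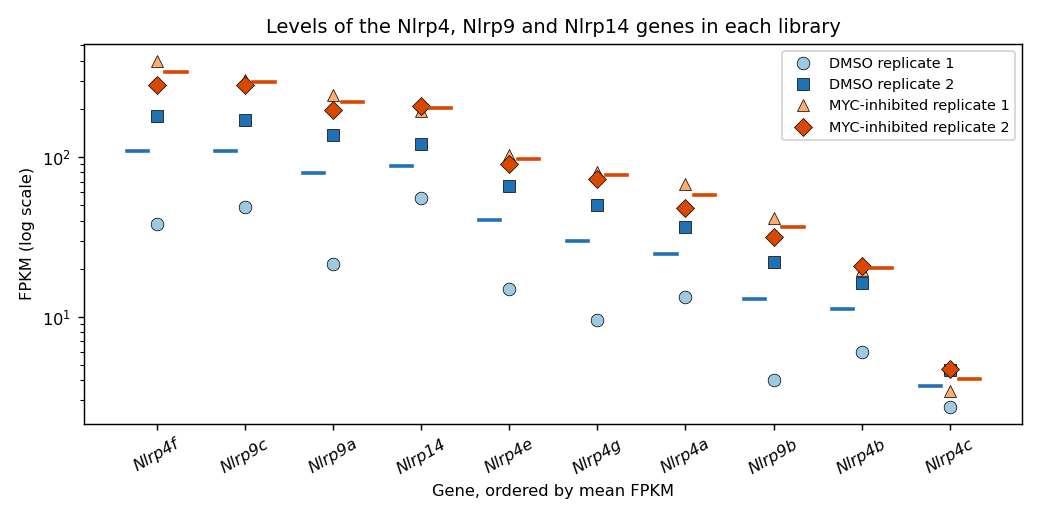
Level of each gene in FPKM (log axis) in the 4 libraries, ordered by the mean over libraries, with a bar to the left for the DMSO mean and to the right for the MYC-inhibited mean (n = 2 each). DMSO replicate 1 is the lowest point of every gene, and the MYC-inhibited points lie above both DMSO points for every gene but Nlrp4c.

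Nlrp14, a maternal gene whose loss in mothers is known to stop embryos early in cleavage, was at 55.2 and 121 FPKM in the DMSO replicates and at 195 and 207 FPKM in the MYC-inhibited replicates. Both MYC-inhibited values were above both DMSO values, and the DMSO replicates differed by 1.85-fold in CPM. By the quasi-likelihood test of edgeR, the log2FC (MYC-inhibited over DMSO) of Nlrp14 was 1.09, with a standard error of 0.42 and a Benjamini-Hochberg adjusted p of 0.333. On the median, the 10 genes had a log2FC of 1.25, against 0.04 for all genes tested. The log2FC was above 0 for 10 of 10 genes, where 51.5% of all genes tested were above 0, and above 1 for 8 of them, against 18.1%. For 9 genes, all but Nlrp4c, the CPM of both MYC-inhibited replicates was above that of both DMSO replicates, which held for 28.9% of all genes tested, and 0 genes showed the opposite, which held for 28.3%.

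At the study's thresholds of |log2FC| above 1 and an adjusted p under 0.05, edgeR called 0 of the 10 genes, as it called 0% of all genes tested. DESeq2 with transcript lengths, the tool of the study, also called 0 of them, where it called 0.456% of 18208 genes higher in MYC-inhibited embryos and 2.36% lower. At an unadjusted p under 0.05, edgeR gave 4 of the 10 genes higher in MYC-inhibited embryos (Nlrp14, Nlrp4a, Nlrp4f and Nlrp9c), against 4.72% of all genes tested, and 0 lower, against 10.1%. DESeq2 gave 8 of the 10 genes higher at that level, against 6.04%. For a single gene in 4 libraries, the smallest p of an exact two-sided permutation test is 0.333. The labels do not say how the replicates of a group were separated, so the p-values measure the spread between these libraries. The size of the difference turned on which DMSO library it was taken from, as all 10 genes had their lowest CPM in DMSO replicate 1, where 40.0% of all genes tested had theirs. For all 10 genes, DMSO replicate 2 lay closer on the log2 scale to the mean of the MYC-inhibited replicates than to DMSO replicate 1. The share of all genes tested with this trait was not computed. Whether the trait is particular to the family was thus not tested. Over all genes tested, the r of DMSO replicate 2 was also higher with the MYC-inhibited replicates (0.951 and 0.962) than with DMSO replicate 1 (0.927). DMSO replicate 2 was over 2-fold higher than DMSO replicate 1 for 8 of the genes, which held for 26.2% of all genes tested.

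Fits without a library leave 1 in its group, which is assumed to vary like the other group. Without DMSO replicate 1, the median log2FC of the 10 genes was 0.68 and 0 genes had a log2FC above 1. Of the 10 genes, 9 were then above 0, against 53.0% of all genes tested, and 8 had an unadjusted edgeR p under 0.05 in that direction, against 6.44%, while the lowest adjusted p was 0.200. Both MYC-inhibited replicates were above DMSO replicate 2 for 9 of the genes, against 37.2% of all genes tested. Without DMSO replicate 2, the median log2FC was 2.38 and edgeR called 9 of the genes higher, with 14.6% of all genes tested called in that direction. Both MYC-inhibited replicates were above DMSO replicate 1 for all 10 genes, against 45.4% of all genes tested.

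**Figure D2:**
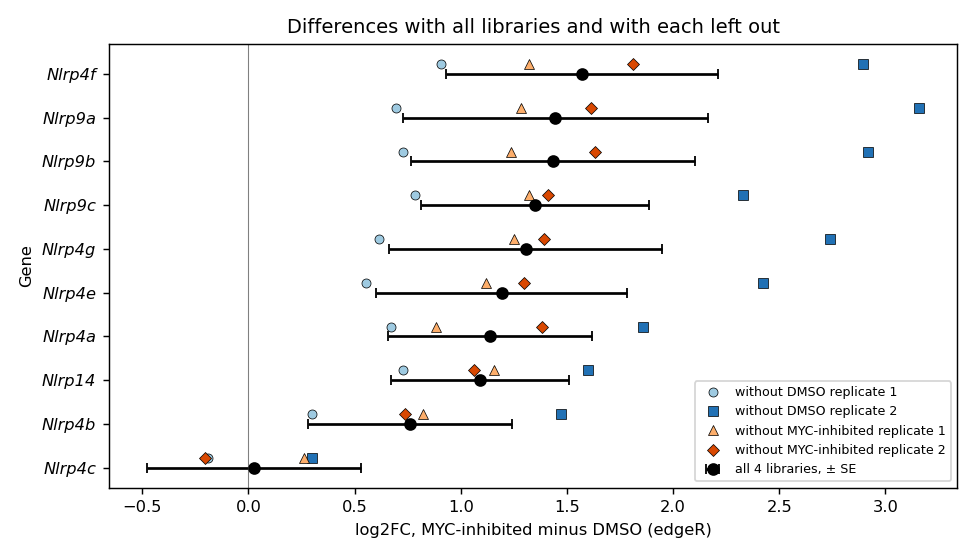
The log2FC of each gene from edgeR with its standard error (black, all 4 libraries) and after removal of single libraries (coloured). The values without DMSO replicate 2 are the highest for every gene, those without DMSO replicate 1 are the lowest for every gene but Nlrp4c, and Nlrp4c runs from -0.20 to 0.30.

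Among the Nlrp4 genes, Nlrp4f, which is known for a part in the cytoplasmic lattices of the oocyte, was at 38.0 and 181 FPKM in the DMSO replicates and at 397 and 282 FPKM in the MYC-inhibited replicates. It was the highest of the family in DMSO replicate 2 and MYC-inhibited replicate 1, and its groups did not overlap. Its log2FC, 1.57 (standard error 0.64, adjusted p = 0.333 by edgeR), was the largest of the family, and it was 0.91 without DMSO replicate 1. Nlrp4e, which has been linked to cleavage of the early embryo, was at 14.9 and 65.8 FPKM in the DMSO replicates and at 103 and 90.3 FPKM in the MYC-inhibited replicates. Nlrp4g was at 9.60 and 50.4 FPKM in the DMSO replicates and at 81.1 and 73.2 FPKM in the MYC-inhibited replicates. Both genes had the same order of libraries, with DMSO replicate 1 far below the rest and no overlap of the groups. The log2FC was 1.19 for Nlrp4e (standard error 0.59, adjusted p = 0.369 by edgeR) and 1.31 for Nlrp4g (standard error 0.64, adjusted p = 0.367).

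Nlrp4a was at 13.3 and 36.4 FPKM in the DMSO replicates and at 68.1 and 47.9 FPKM in the MYC-inhibited replicates, which gave a log2FC by edgeR of 1.14 (standard error 0.48, adjusted p = 0.334). Nlrp4b was at 6.03 and 16.4 FPKM in the DMSO replicates and at 19.6 and 20.7 FPKM in the MYC-inhibited replicates, a log2FC of 0.76 (standard error 0.48, adjusted p = 0.451). For Nlrp4b, the MYC-inhibited replicates lay only just above DMSO replicate 2, by 1.22-fold in mean CPM. Nlrp4c was at 2.74 and 4.65 FPKM in the DMSO replicates and at 3.44 and 4.71 FPKM in the MYC-inhibited replicates, from rounded counts of 175, 282, 238 and 311. Its groups overlapped, with a log2FC of only 0.03 by edgeR (standard error 0.50, adjusted p = 0.986). Without DMSO replicate 1 the log2FC of Nlrp4c was -0.19. It was the only gene of the family to lie below 0 in any fit with a library left out.

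The Nlrp9 genes differed from each other mainly in level. Nlrp9a was at 21.5 and 137 FPKM in the DMSO replicates and at 245 and 196 FPKM in the MYC-inhibited replicates. Nlrp9c was at 48.6 and 171 FPKM in the DMSO replicates and at 304 and 284 FPKM in the MYC-inhibited replicates. Nlrp9b, known in the gut as a sensor of viral double-stranded RNA that acts with the helicase DHX9, was at 3.99 and 21.9 FPKM in the DMSO replicates and at 41.3 and 31.4 FPKM in the MYC-inhibited replicates. The groups did not overlap for any of the Nlrp9 genes, and DMSO replicate 1 was the lowest library for each. The log2FC was 1.44 for Nlrp9a (standard error 0.72, adjusted p = 0.371 by edgeR), 1.43 for Nlrp9b (standard error 0.67, adjusted p = 0.352) and 1.35 for Nlrp9c (standard error 0.54, adjusted p = 0.333). Between the DMSO replicates, the CPM differed by 5.57-fold for Nlrp9a, the widest gap of the family, by 4.62-fold for Nlrp9b and by 2.95-fold for Nlrp9c. From DMSO replicate 2 to the mean of the MYC-inhibited replicates, the difference was 1.60-fold for Nlrp9a, 1.64-fold for Nlrp9b and 1.71-fold for Nlrp9c.

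**Figure D3:**
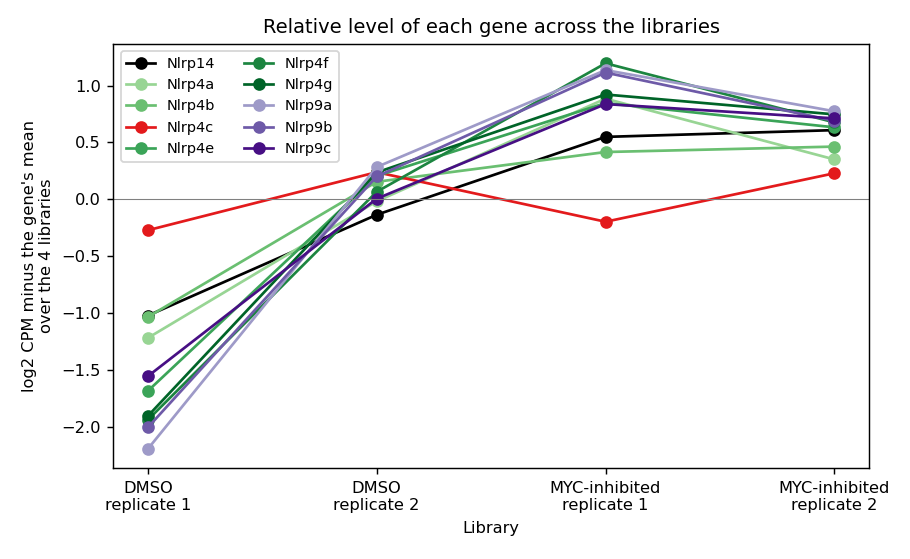
The log2 CPM of each gene minus its own mean over the 4 libraries, with 1 line per gene. In DMSO replicate 1 the values run from -2.19 (Nlrp9a) to -0.27 (Nlrp4c), and Nlrp4c alone is below 0 in MYC-inhibited replicate 1.

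The genes were set beside each other by the sequence of their mRNA. For 9 of the 10 genes the deposited RefSeq transcript could be matched to a GENCODE transcript, and Nlrp4g was not compared. The longest matched transcript was used, which can differ from the sequence that was quantified. Its length was 4259 bases for Nlrp4a, against a deposited gene length of 3575, and 3216 bases for Nlrp9c, against 3020. Nlrp4c and Nlrp4e had the most similar pair of mRNAs, with 93.4% identity over 3343 aligned bases. Nlrp9a and Nlrp9c were 88.0% identical, Nlrp4a and Nlrp4e 85.4%, and Nlrp9a and Nlrp9b 83.8%. Nlrp14 aligned to the others only in part, over at most 789 bases. Nlrp4c and Nlrp4e nonetheless differed across the libraries. The level of Nlrp4e over that of Nlrp4c, as a ratio of FPKM, was 5.44 and 14.1 in the DMSO replicates and 29.9 and 19.2 in the MYC-inhibited replicates. This ratio was higher in both MYC-inhibited replicates than in both DMSO replicates, by 1.45 on the log2 scale, and the exact two-sided permutation p was 0.333, the smallest the design allows. The pair was chosen after its values were seen. Nlrp9a over Nlrp9c gave ratios of 0.442 and 0.803 in the DMSO replicates and 0.807 and 0.690 in the MYC-inhibited replicates, and these groups overlapped.

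By the study's methods, only uniquely mapped reads were used. Whether every read that fitted a near-identical copy equally well was left out was not tested. Of the stretches of 150 bases in each mRNA, the length of 1 read, 3.4% were shared with transcripts of other genes for Nlrp4e and 0% for the other 8 mRNAs compared, Nlrp4c among them. This counts annotated transcripts and not the rest of the genome. The expected counts of Nlrp4e were not whole numbers in 4 of 4 libraries, those of Nlrp9a and Nlrp9b in 1 library each. Of the 9 genes whose mRNA was compared, Nlrp4e was thus the only one with stretches shared at this length, and Nlrp4g was not compared.

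Because most of the genes had the same order of libraries, the sequences at their starts were compared. The RefSeq tables of promoter windows (GRCm38.p6, from 250 bases before to 50 after a transcript start) held 10 windows for 8 of the genes and none for Nlrp14 and Nlrp4g. The windows below show the pair with near-identical starts, Nlrp9a and Nlrp9c, the related starts of Nlrp4a, Nlrp4b and Nlrp4c, and that of Nlrp4e, whose mRNA is close to that of Nlrp4c. Each is written 5′ to 3′ on the strand of the gene, with capitals for every CCAAT motif on either strand (CCAAT or ATTGG), the core of the site bound by the factor NF-Y.
Nlrp9a, plus strand, chr7:26534773-26535072: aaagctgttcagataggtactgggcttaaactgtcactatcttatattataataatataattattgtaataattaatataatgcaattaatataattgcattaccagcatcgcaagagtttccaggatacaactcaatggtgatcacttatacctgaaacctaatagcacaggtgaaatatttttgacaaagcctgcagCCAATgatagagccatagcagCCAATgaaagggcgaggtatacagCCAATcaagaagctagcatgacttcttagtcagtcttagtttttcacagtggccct
Nlrp9c, minus strand, chr7:26403651-26403950: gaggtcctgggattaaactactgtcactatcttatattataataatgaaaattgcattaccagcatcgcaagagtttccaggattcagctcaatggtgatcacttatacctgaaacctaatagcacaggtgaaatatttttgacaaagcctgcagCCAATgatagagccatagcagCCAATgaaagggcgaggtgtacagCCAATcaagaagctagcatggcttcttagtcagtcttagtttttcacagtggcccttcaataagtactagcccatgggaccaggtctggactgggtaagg
Nlrp4a at its downstream start, plus strand, chr7:26435364-26435663: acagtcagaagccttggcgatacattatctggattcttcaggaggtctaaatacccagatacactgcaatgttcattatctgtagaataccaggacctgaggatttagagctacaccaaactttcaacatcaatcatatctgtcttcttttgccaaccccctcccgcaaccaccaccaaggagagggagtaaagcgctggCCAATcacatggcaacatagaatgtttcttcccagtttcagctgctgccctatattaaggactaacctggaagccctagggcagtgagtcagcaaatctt
Nlrp4b at its upstream start, plus strand, chr7:10687543-10687842: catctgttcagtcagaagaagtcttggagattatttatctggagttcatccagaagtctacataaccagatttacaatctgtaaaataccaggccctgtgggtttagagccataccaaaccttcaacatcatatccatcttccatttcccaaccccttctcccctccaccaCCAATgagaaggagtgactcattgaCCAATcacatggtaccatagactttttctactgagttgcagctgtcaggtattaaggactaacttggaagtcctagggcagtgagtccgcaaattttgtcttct
Nlrp4c, plus strand, chr7:6044911-6045210: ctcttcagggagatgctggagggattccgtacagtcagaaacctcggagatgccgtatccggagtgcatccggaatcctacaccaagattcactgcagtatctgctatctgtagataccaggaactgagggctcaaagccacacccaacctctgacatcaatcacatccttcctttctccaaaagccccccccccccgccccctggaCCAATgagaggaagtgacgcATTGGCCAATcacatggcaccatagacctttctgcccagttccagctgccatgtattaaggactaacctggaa
Nlrp4e, plus strand, chr7:23300942-23301241: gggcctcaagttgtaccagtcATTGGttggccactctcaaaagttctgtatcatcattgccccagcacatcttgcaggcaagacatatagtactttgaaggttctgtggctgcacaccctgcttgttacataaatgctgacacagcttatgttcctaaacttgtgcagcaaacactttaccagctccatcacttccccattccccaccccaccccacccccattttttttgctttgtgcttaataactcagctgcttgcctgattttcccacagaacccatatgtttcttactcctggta
The windows of Nlrp9a and Nlrp9c were 96.8% identical over 252 aligned bases, and each held 3 CCAAT motifs in the same spacing. The window of Nlrp4b aligned to that of Nlrp4a over 280 bases with 80.7% identity and to that of Nlrp4c over 257 bases with 80.2% identity. Nlrp4c, with a log2FC of 0.03, thus had a start region close to those of Nlrp4b and of Nlrp4a at its downstream start. The log2FC values of Nlrp4a and Nlrp4b were 1.14 and 0.76. The window of Nlrp4a at its upstream start aligned to that of Nlrp4c over only 24 bases. Levels were measured per gene, so the starts of Nlrp4a were not told apart. The window of Nlrp4e aligned to that of Nlrp4c over only 37 bases, although their mRNAs were 93.4% identical. A CCAAT motif on either strand was found in 7 of the 10 windows, which belong to 6 genes, and in 37.4% of all 32851 windows of this length. The windows of Nlrp4b overlap each other and share their motifs. At least 3 of them were found in Nlrp9a, Nlrp9c and Nlrp4c, and in 3.37% of all windows. The E-box CACGTG, the palindromic site preferred by MYC and MAX, was found in 0 of the 10 windows and in 7.15% of all windows. The general E-box CANNTG, which includes CACGTG, was found in all 10 windows and in 72.3% of all windows, and TATAAA on either strand in 1 window (Nlrp9b) and in 13.6% of all windows. These motifs were chosen after the windows had been read, and a match of letters is not evidence of binding.

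**Figure D4:**
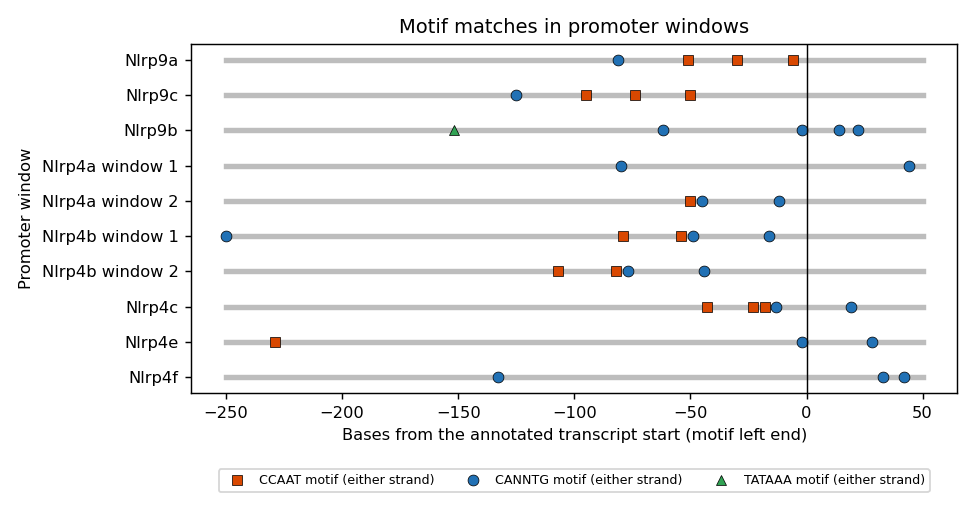
Position of each motif match in the 10 promoter windows, as bases from the annotated transcript start (0), with grey lines for the windows. The CCAAT matches of Nlrp9a and Nlrp9c keep their spacing, at -95, -74 and -50 in Nlrp9c and at -51, -30 and -6 in Nlrp9a, and CACGTG is absent from the plot because it had 0 matches.

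Of the 10 genes, 8 lie on chromosome 7 of GRCm38.p6. Nlrp9c (26364691 to 26403700, minus strand), Nlrp4a (26435113 to 26476142, plus strand) and Nlrp9a (26535023 to 26574148, plus strand) are direct neighbours among the listed genes. All 3 were higher in MYC-inhibited embryos without overlap between the groups, which held for 28.9% of all genes tested. Nlrp4c (6045161 to 6105149), Nlrp4b (10687793 to 10730168), Nlrp9b (19991393 to 20062942), Nlrp4e (23301192 to 23362277) and Nlrp14 (107113455 to 107198103) lie apart on the plus strand of the same chromosome. Nlrp4f lies on chromosome 13 (65177111 to 65205716, minus strand) and Nlrp4g on chromosome 9 (124348831 to 124356974, plus strand). The log2FC of Nlrp4f, 1.57, was above that of every family member on chromosome 7, and that of Nlrp4g, 1.31, lay among theirs. Many of the nearest listed genes on either side were olfactory or vomeronasal receptor genes at or near 0 counts. Ceacam20, of the carcinoembryonic antigen family, ends 0.3 kb before the span of Nlrp9b. It was at 5.53 and 30.4 FPKM in the DMSO replicates and at 59.3 and 48.2 FPKM in the MYC-inhibited replicates, the same order of libraries as Nlrp9b, with a log2FC of 1.53 (adjusted p = 0.340 by edgeR). The promoter window of Nlrp9b (20007773 to 20008072) lies inside the span of that gene and not at the end next to Ceacam20. Whether transcripts run from Ceacam20 into Nlrp9b was not tested. Next to Nlrp4e lies Nlrp5 at 23.6 kb, and Gm6902 on the other side was at 175 and 232 FPKM in the DMSO replicates and at 201 and 257 FPKM in the MYC-inhibited replicates, with overlapping groups and a log2FC of 0.04. Of the other neighbours with a mean of at least 1 FPKM, 4930526I15Rik next to Nlrp4g had overlapping groups. Rbmxl2, next to Nlrp14, was at 2.28 and 2.03 FPKM in the DMSO replicates and at 3.55 and 2.71 FPKM in the MYC-inhibited replicates, so its groups did not overlap in FPKM, but they did in CPM (log2FC 0.39, adjusted p = 0.829 by edgeR). Zfp369, next to Nlrp4f, was at 2.0 and 5.69 FPKM in the DMSO replicates and at 2.34 and 1.21 FPKM in the MYC-inhibited replicates, with overlapping groups (log2FC -1.19, adjusted p = 0.421 by edgeR). In CPM its groups were just apart, with a lowest DMSO value of 5.93 and a highest MYC-inhibited value of 5.84.

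Other members of the receptor family were mostly low. Of 21 other NOD-like receptor genes, 11 were tested and 7 had a mean of at least 1 FPKM, and their summed level lay between 24.1 and 46.9 FPKM, against at least 214 FPKM for the Nlrp4, Nlrp9 and Nlrp14 genes. Of the 11, 7 were higher and 4 lower in MYC-inhibited embryos, 0 were called, and the median log2FC was 0.32. Nlrp5, also named Mater and a core part of the subcortical maternal complex of the egg, was at 8.28 and 17.9 FPKM in the DMSO replicates and at 22.7 and 21.8 FPKM in the MYC-inhibited replicates (log2FC 0.66, adjusted p = 0.457 by edgeR). Nlrp2, another oocyte gene, was at 2.04 and 7.38 FPKM in the DMSO replicates and at 8.45 and 3.86 FPKM in the MYC-inhibited replicates, with overlapping groups. Nlrp3, the sensor of the best known inflammasome, was at 6.59 and 2.78 FPKM in the DMSO replicates and at 2.22 and 2.16 FPKM in the MYC-inhibited replicates (log2FC -1.29, adjusted p = 0.355). Naip1 was at 0.00 and 1.66 FPKM in the DMSO replicates and at 4.46 and 5.08 FPKM in the MYC-inhibited replicates. At an unadjusted edgeR p under 0.05 there were Nlrc4 (log2FC 1.40, adjusted p = 0.334), the adaptor receptor for NAIP proteins, and Nlrp12 (log2FC -3.08, adjusted p = 0.333). Nlrp12 had 255 counts in DMSO replicate 1 and from 11 to 31 in the other libraries, and its groups overlapped.

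Transcripts of most of the inflammasome genes listed were scarce in these embryos, with 3 of 13 at a mean of at least 1 FPKM. Protein was not measured. Of 13 partner and product genes, 4 were tested, with 1 higher, 3 lower, 0 called and 0 with an unadjusted edgeR p under 0.05. Pycard, the adaptor that joins NLRP proteins to caspase-1, had counts of 0, 0, 4 and 6 in DMSO replicates 1 and 2 and MYC-inhibited replicates 1 and 2. Casp1 had counts of 0, 13, 2 and 0, and Il1b had 0 counts in every library. Pycard, Casp1 and Il1b were picked after their values were seen. The highest of the list were Txnip, with a mean of 11.9 FPKM, and Nek7, with 9.61 FPKM, and both have functions outside the inflammasome. Of 7 genes for reported protein partners of NLRP4, NLRP9 or NLRP14, 5 were tested, with 3 higher, 2 lower and 0 called, and the median log2FC was 0.18. Slc8b1 and Dtx4 did not pass the filter on low counts. Slc8b1 had counts of 131 and 6 in the DMSO replicates and 0 and 0 in the MYC-inhibited replicates. DESeq2 with lengths gave Slc8b1 an unadjusted p of 1.6e-05 and no adjusted p. For Dtx4 the counts were 3 and 2, and 31 and 3. Becn1, the autophagy protein bound by human NLRP4, was at 40.4 and 52.0 FPKM in the DMSO replicates and at 57.4 and 56.7 FPKM in the MYC-inhibited replicates (log2FC 0.18, adjusted p = 0.827 by edgeR). Uhrf1, a DNA methylation factor reported as a partner of NLRP14, was at 5.72 and 19.3 FPKM in the DMSO replicates and at 23.1 and 20.8 FPKM in the MYC-inhibited replicates (log2FC 0.73, adjusted p = 0.505). Dhx9 was at 10.7 and 10.5 FPKM in the DMSO replicates and at 7.25 and 7.24 FPKM in the MYC-inhibited replicates (log2FC -0.69, adjusted p = 0.406), and Dnmt1, the maintenance DNA methyltransferase, had overlapping groups and a mean of 4.65 FPKM.

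Lists of other maternal genes also had medians above 0. Of 7 subcortical maternal complex genes, all tested and with Nlrp5 and Nlrp2 among them, 6 were higher in MYC-inhibited embryos and 5 without overlap, where 28.9% of all genes tested were higher without overlap, and the median log2FC was 0.65. At an unadjusted edgeR p under 0.05, 1 was higher (Zbed3), against 4.72% of all genes tested. Zbed3, at 348 and 1124 FPKM in the DMSO replicates and at 2333 and 2036 FPKM in the MYC-inhibited replicates, was the highest of them (log2FC 1.49, adjusted p = 0.333 by edgeR). DESeq2 with transcript lengths called Zbed3, at an adjusted p of 0.0426, where it called 0.456% of 18208 genes higher. Ooep and Padi6, also among the highest of the list, each had a log2FC of 0.65. The median log2FC of 43 other oocyte transcripts was 0.96, with 36 higher and 7 lower, 30 higher and 4 lower without overlap (28.9% and 28.3% of all genes tested), and 0 called by edgeR. Of these, 12 were higher and 2 lower at an unadjusted edgeR p under 0.05 (4.72% and 10.1% of all genes tested). DESeq2 with lengths called 3 of the 43 higher, against 0.456% of 18208 genes. Their 4 highest genes were not uniform. Dppa3, a maternal factor that shields the maternal genome from demethylation in the zygote, was at 23548 and 15004 FPKM in the DMSO replicates and at 11263 and 12132 FPKM in the MYC-inhibited replicates (log2FC -0.89, adjusted p = 0.384). Tcl1, Btg4 and Oosp1 had log2FC values of 1.28, 1.45 and 1.56. Without DMSO replicate 1, the median log2FC was 0.32 for the subcortical maternal complex genes, 0.54 for the other oocyte transcripts and 0.68 for the 10 Nlrp genes. Whether these lists differ was not tested. For the 22 two-cell embryo genes, which the embryo transcribes itself, the median log2FC was 0.84, with 19 higher (51.5% of all genes tested), and 0.32 without DMSO replicate 1.

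**Figure D5:**
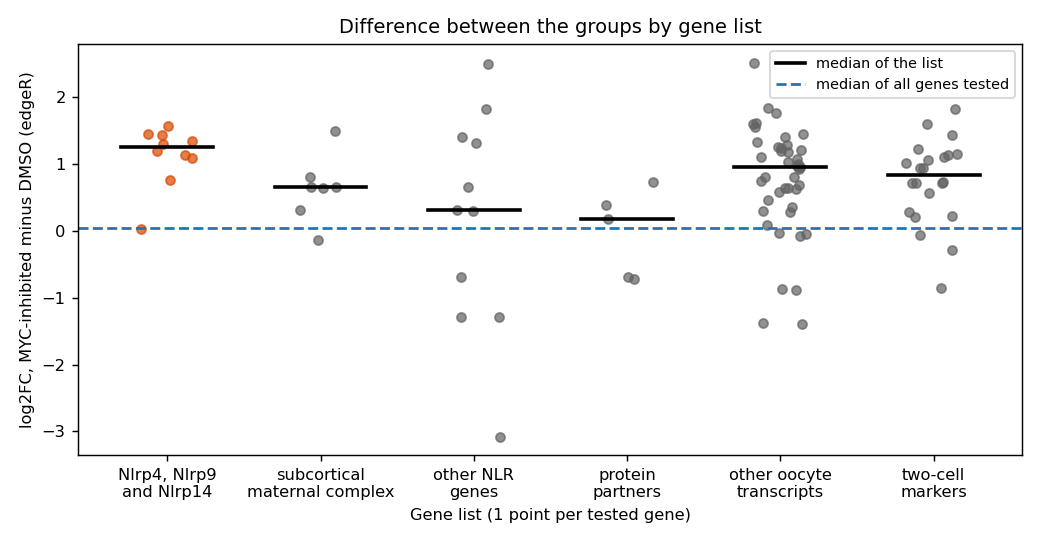
The log2FC of each tested gene (1 point each) by list, with the median of the list as a black bar and the median of all genes tested as a dashed line at 0.04. The medians are 1.25 for the Nlrp4, Nlrp9 and Nlrp14 genes, 0.65 for the subcortical maternal complex, 0.32 for other NLR genes, 0.18 for protein partners, 0.96 for other oocyte transcripts and 0.84 for two-cell markers.

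Genes outside the family with the most similar pattern were sought among 5147 genes with a mean of at least 10 FPKM. The measure was the Euclidean distance, over the 4 libraries, between a gene's centred log2 CPM and the median centred profile of the 10 Nlrp genes, which was -1.62 and 0.18 in the DMSO replicates and 0.87 and 0.65 in the MYC-inhibited replicates. The nearest were Ccdc122 (distance 0.092), Cox10 (0.101), an assembly factor of cytochrome c oxidase, Nfil3 (0.103), a transcription factor, Ccdc132 (0.116) and Smagp (0.132). Within a distance of 0.25 there were 51 genes. Of the Nlrp genes themselves, Nlrp4e (0.076) and Nlrp9c (0.194) lay within that distance, and Nlrp4c (1.77) lay the farthest away.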

How the data were processed

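Polyadenylated RNA from 4 pools of late two-cell embryos was measured. The authors made libraries with a SMART-Seq v4 PLUS kit, mapped read pairs to mm10 with STAR (2.7.10 in the submitters' processing notes), kept uniquely mapped reads and estimated gene levels with RSEM 1.3.3. The deposited expected counts carry no normalization. The FPKM and TPM values the authors deposited correct for effective length and for library size. Gene and effective lengths, in bases, were deposited beside them.

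Samples were grouped by their titles. Expected counts were rounded to whole numbers, filtered for low counts by filterByExpr (at least 10 counts, and 15 in total), scaled with TMM factors and tested with edgeR 4.0.16 (quasi-likelihood, robust, Benjamini-Hochberg over 13549 genes) in R 4.3.3. The standard error was taken as the log2FC divided by the square root of the F statistic. SD values are over 2 libraries. Centred profiles used log2(CPM + 0.01). mRNA and promoter windows were aligned locally, pair by pair. The fits were tested on 3 simulations of 2 against 2 libraries, with some genes changed by 2 on the log2 scale. Of the changed genes, edgeR called 26.7%, DESeq2 40.7% and limma 0.667%, so a gene that was not called can still differ. GRCm38.p6 is the assembly named mm10.

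The alternatives were DESeq2 1.42.0 with and without transcript lengths, limma 3.58.1 on log2 FPKM with a pseudocount of 1 or 0.1 (mean of at least 1 FPKM), other scalings and filters, a replicate block, the adjusted p alone, TPM or CPM per kb in place of FPKM, and each library left out. The rule for named genes took the family members, the highest (up to 4 of a list) or those with an unadjusted p under 0.05 in the related lists, the 4 highest other oocyte transcripts, the nearest listed neighbours (mean of at least 1 FPKM) and the 5 genes of the most similar pattern. Genes named outside this rule, which were the examples from the marker lists of two-cell embryos and other cell types, and Pycard, Casp1, Il1b, Slc8b1, Dtx4 and Gm4541, were chosen after their values were seen. The family members, lists and rules were chosen with earlier results of these data known.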

Additional observations from a re-analysis of the deposited data

How the results depend on the processing

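Removal of single libraries gave wide ranges. The number of called genes among the 10 ranged from 0 to 9 and their median log2FC from 0.68 to 2.38, both set by the DMSO library that remained: 9 genes and 2.38 without DMSO replicate 2. Without a filter on low counts, edgeR called 2 of the 10 genes, Nlrp4f and Nlrp9a, where it called 0.906% of all genes higher. In no other alternative was any of the 10 called, and their median log2FC lay between 1.25 and 1.65 outside the fits with a library left out. Nlrp4c changed direction without DMSO replicate 1 (log2FC -0.19) and without MYC-inhibited replicate 2 (-0.20), with 0.30 as its highest value, and no other gene of the family changed direction in any alternative. With library totals as the only scaling, the median of all genes was 0.17 and that of the 10 genes 1.31. DESeq2's called genes over the whole table numbered 83 higher and 429 lower with lengths, against 0 by edgeR. The block of replicate numbers, which the labels do not tie to a shared day or litter, gave a median of 1.51 and called 0 of the 10 genes, 12 genes higher and 32 lower among all genes, and deviations of same-numbered libraries had a correlation of -0.0019 over genes. CPM per kb of full length left 10 of 10 genes at their rank, and TPM or CPM per kb in place of FPKM kept the ratio of summed levels within the spread of replicates. With 2 libraries per group and a DMSO library that stood apart, the precision is set by the replicates, not by depth.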

Other observations

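Gm4541, the only listed gene that shares stretches of 150 bases with the Nlrp4e mRNA, had rounded counts of 69 and 244 in the DMSO replicates and 430 and 450 in the MYC-inhibited replicates. Its order of libraries differed from that of Nlrp4e only in the order of the MYC-inhibited replicates, and it was picked after its values were seen. Whether the genes share reads was not tested.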
